A study of Mus musculus with 6 samples.

Results

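Late mitosis was set against early G1 in a comparison of 4 ATAC-seq peak lists, the 2 lists titled LM and the 2 titled eG1-1, out of 6 lists in the series. ATAC-seq maps open chromatin as the places where the transposase Tn5 can insert its adapters. The members were found by merging the peaks of the 4 lists on chromosomes 1 to 19 wherever they overlapped by 1 bp or more. This gave 59582 regions, against 64018 when the 2 lists titled mito were merged in as well. The cell line of all 6 samples was CGR8, a line of mouse embryonic stem cells. The medium of these samples was N2B27 with 3 µM CHIR99021, a GSK3 inhibitor, 1 µM PD184352, a MEK inhibitor, and leukemia inhibitory factor, which the protocol in the labels gives for untreated Cdt-MD cells. The titles of the groups differ only in the name of the cell cycle point, and the labels give no allele or agent that sets LM and eG1-1 apart. LM is read here as late mitosis and eG1-1 as early G1, since the series title names mitotic exit, but no label defines either name, and peaks in the LM lists are named Telo. The number of cells per sample differs between the titles and the protocol, which gives 50000. Nothing in the labels says that the 2 replicates of a group came from separate cultures, so their spread may be technical.

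When a cell enters mitosis its chromosomes condense, transcription largely stops and many transcription factors leave the DNA, while the accessibility of promoters tends to be kept better than that of enhancers. As the cell leaves mitosis the nuclear envelope reforms around the chromatids, cohesin and the CTCF that had left return to the chromosomes, and transcription starts again. In embryonic stem cells, factors that had left the enhancers of pluripotency genes have to bind them anew in each cycle. Replication origins are licensed by loading the MCM helicase from telophase into G1.

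The promoters of 6 genes are printed so that the start sites with the highest scores can be read; they were chosen by score and need not stand for the other genes of their direction. They are the 3 genes with the highest scores in each direction among those whose peaks, in both lists of the group, reach into the 250 bases before a RefSeq start site (GRCm38.p6, the assembly of mm10). Sequences run 5′ to 3′ on the strand of the gene and end at the base before the start. Capitals mark matches, on either strand, to 10 short motifs. The GC box of the SP and KLF factors was searched as GGGCGG, and the box bound by the trimer NF-Y as CCAAT. The letters for ETS factors were CCGGAAG, those for CREB with its ATF relatives TGACGTCA, and the palindrome of MYC with USF was CACGTG. The core of the box bound by TBP was searched as TATAAA, and the site of NRF1 as CGCATGCG. The cell cycle homology region was searched as TTTGAA, a part of the POU octamer as TTTGCAT, and the core site of YY1 as AAGATGGCG. The printed stretches lie at chr6:88898781-88899030 for Mcm2, chr5:144100111-144100360 for Lmtk2, chr10:121626333-121626582 for Xpot, chr8:70152511-70152760 for Mef2b, chr6:30391021-30391270 for Zc3hc1 and chr10:127266012-127266261 for Dctn2. Mcm2 and Xpot, and also Zc3hc1, lie on the minus strand.
Mcm2: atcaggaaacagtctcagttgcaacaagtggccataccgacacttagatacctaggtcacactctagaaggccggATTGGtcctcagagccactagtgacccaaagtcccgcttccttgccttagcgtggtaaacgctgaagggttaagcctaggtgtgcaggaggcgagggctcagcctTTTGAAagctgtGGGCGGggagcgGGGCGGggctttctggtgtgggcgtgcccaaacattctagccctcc
Lmtk2: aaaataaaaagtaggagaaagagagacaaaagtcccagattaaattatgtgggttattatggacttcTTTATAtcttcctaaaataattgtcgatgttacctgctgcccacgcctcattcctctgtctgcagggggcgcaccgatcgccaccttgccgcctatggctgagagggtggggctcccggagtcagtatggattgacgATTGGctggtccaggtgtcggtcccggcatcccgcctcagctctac
Xpot: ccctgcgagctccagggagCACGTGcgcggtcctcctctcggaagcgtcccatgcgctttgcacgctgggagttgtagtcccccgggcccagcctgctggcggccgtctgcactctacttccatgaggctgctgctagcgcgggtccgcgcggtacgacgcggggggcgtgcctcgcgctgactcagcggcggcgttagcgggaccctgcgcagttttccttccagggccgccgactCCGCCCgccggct
Mef2b: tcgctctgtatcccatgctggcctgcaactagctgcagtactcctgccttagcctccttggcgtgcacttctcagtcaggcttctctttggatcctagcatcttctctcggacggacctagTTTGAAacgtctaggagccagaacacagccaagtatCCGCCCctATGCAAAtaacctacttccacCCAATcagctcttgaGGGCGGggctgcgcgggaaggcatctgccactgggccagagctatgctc
Zc3hc1: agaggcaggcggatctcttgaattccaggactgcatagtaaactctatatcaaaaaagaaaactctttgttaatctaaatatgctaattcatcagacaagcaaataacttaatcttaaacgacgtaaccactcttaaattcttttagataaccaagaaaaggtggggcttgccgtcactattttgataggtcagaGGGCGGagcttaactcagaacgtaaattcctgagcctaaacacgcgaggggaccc
Dctn2: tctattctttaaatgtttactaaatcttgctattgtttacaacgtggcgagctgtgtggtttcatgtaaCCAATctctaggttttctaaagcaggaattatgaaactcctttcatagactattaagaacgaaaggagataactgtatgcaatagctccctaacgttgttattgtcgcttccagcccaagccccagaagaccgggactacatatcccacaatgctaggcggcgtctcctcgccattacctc
Mcm2, Lmtk2 and Xpot had a peak in both LM lists and in neither eG1-1 list, and the other 3 genes the reverse. The printed bases of Xpot hold 32 CpG dinucleotides and are 71.6% G or C, while those of Zc3hc1 hold 8 CpG and are 40.0% G or C. Mcm2 holds 10 CpG, Lmtk2 11, and Mef2b and Dctn2 9 each. The LM peaks covered 64 and 104 of the printed bases of Mcm2, with replicate 1 first, and the eG1-1 peaks covered all 250 of Zc3hc1. Mcm2 carries 2 GC boxes, which begin 58 and 46 bases before the start, and a cell cycle homology region 70 bases before it. Mef2b carries an octamer match 85 bases before its start and a CCAAT box 64 bases before it. A match is a match of letters only.

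The 4 lists differed in length and did not fall cleanly into their groups. The LM lists held 23377 peaks in replicate 1 and 20289 in replicate 2, and the eG1-1 lists 31443 and 47411. The LM mean was 21833 ± 2184 and the eG1-1 mean 39427 ± 11291 (SD, n = 2 per group; exact two-sided permutation p = 0.333, the smallest that 2 lists against 2 allow). How deeply each sample was read is unknown, and where a list lacks a peak, none was called there. In each list the fifth column is the score the authors deposited for the peak, a whole number of 13 or more whose scale is not given, and it is used here only to rank or describe peaks within a list. LM peaks had median widths of 460 and 335 bp and eG1-1 peaks 340 and 410 bp, so the groups overlapped (exact permutation p = 1.00). Promoter peaks, meaning peaks within 1 kb of a start site of a protein-coding gene, made up 43.0% and 36.0% of the LM lists and 28.2% and 24.7% of the eG1-1 lists. The mean shares were 39.5% ± 4.96 and 26.5% ± 2.45 (SD, n = 2 per group; exact permutation p = 0.333). To set lists of equal length beside each other, each file was cut to its highest scores, as many as the shortest file holds, which put the lowest score kept at 28 and 13 in LM and at 38 and 66 in eG1-1. At equal length 46.2% of peaks in LM replicate 1 lay at a promoter, against 36.0% in LM replicate 2, 34.4% and 35.2% in eG1-1 and 44.9% and 44.4% in mito. LM replicate 1 was thus near the mito lists and LM replicate 2 near the eG1-1 lists. Peak names also show that all replicate 1 lists came from 1 sequencing run and all replicate 2 lists from another. Of 8 markers of mouse embryonic stem cells, 4 and 3 had a promoter peak in the LM lists and 2 and 6 in the eG1-1 lists, with Zfp42 in all 4 lists and Sall4 in none. Of 6 fibroblast markers Col1a1 and Thy1 had one in all 4 lists, and Col3a1, Pdgfra and Twist1 in none. The neuronal genes Tubb3 and Neurod1 had one in all 4 lists, the endothelial and hepatocyte markers had none, and of 4 blood markers 1 had one, in eG1-1 replicate 2 alone. These promoter peaks were not tested as a measure of other cells.

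Regions held by eG1-1 and not by LM were far more numerous than the reverse in the full lists, and much less so at equal length. A peak in both eG1-1 lists and none in LM was found for 6035 regions (10.1% of the 59582), and the reverse for 298 (0.500%). Regions in all 4 lists numbered 11261. At equal length the counts were 1625 (4.49% of 36180 regions) and 1250 (3.45%). A stricter count asked that a region be among the strongest peaks of both lists of 1 group. The region also had to lack any peak in the full lists of the other group. Both held for 1496 regions in eG1-1 (2.51% of all regions) and for 248 in LM (0.416%). The cut left LM replicate 2, the shortest list, whole, so the demand was weaker for LM than for eG1-1. Leaving out a list loosens the rule, so that the counts from the full lists can only rise, and the rise differed with the list. The 6035 became 9674 when LM replicate 1 was left out, 8745 for LM replicate 2, 23742 for eG1-1 replicate 1 and 12357 for eG1-1 replicate 2, and the 298 became 2280, 3536, 511 and 1668 in the same order. Scores in these regions were low: the lower of the 2 scores had a median of 34 in the regions of eG1-1 and 29 in those of LM, against 79 and 56 for the eG1-1 and LM scores of regions in all 4 lists. It reached 50 in 1437 of the 6035 (23.8%) and in 38 of the 298 (12.8%). Median widths were 471 and 457 bp, against 826 bp for regions in all 4 lists. A merged region spans the peaks of every list that holds it, so width grows with the number of lists. Regions of 1 list only had a median of 287 bp.

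The regions of eG1-1 were mostly distal, meaning outside all promoters, while those of LM included many promoters, but this contrast was seen in only 1 of the 2 sequencing runs. Of the 6035 regions 630 were at a promoter (10.4%, Wilson 95% interval 9.69 to 11.2), and of the 298 regions 118 (39.6%, 34.2 to 45.2). All regions held by both eG1-1 lists were at a promoter in 33.2% of cases, and those held by both LM lists in 48.4%. At equal length the shares were 12.5% and 45.0%, and under the stricter count 12.3% and 42.3%. Within the run of the replicate 1 lists, regions of eG1-1 and not LM were at a promoter in 9.90% of 15096 cases, and regions of LM and not eG1-1 in 38.0% of 7454. Within the run of the replicate 2 lists the shares were 16.0% of 29794 and 16.3% of 2795. At equal length they were 11.2% and 41.9% in replicate 1, and 20.9% and 22.7% in replicate 2. Without LM replicate 1 the order of the shares turned, with 20.2% for eG1-1 and 16.5% for LM. Intervals cover counting error only.

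**Figure D1:**
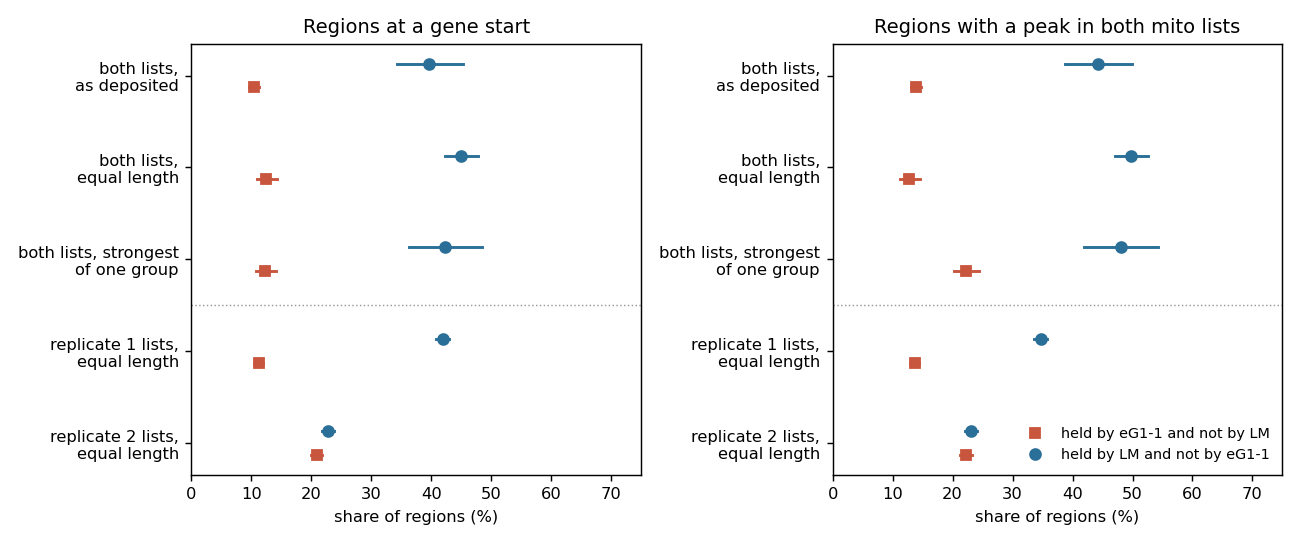
Share of regions (x axis, %) that lay at a gene start (left) or had a peak in both mito lists (right), for regions held by eG1-1 and not by LM (squares) and by LM and not by eG1-1 (circles); bars are Wilson 95% intervals for counting error. The 3 upper rows ask for both lists of a group, and the lower rows set 1 LM list against 1 eG1-1 list of the same sequencing run: the marks lie apart for the replicate 1 lists (11.2% and 41.9% at a gene start) and close together for the replicate 2 lists (20.9% and 22.7%).

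The mito lists, which had no part in choosing the regions, held peaks in more of the LM regions than of the eG1-1 regions. Both mito lists had a peak in 132 of the 298 LM regions (44.3%, 38.8 to 50.0) and in 840 of the 6035 eG1-1 regions (13.9%, 13.1 to 14.8). The same share was 83.8% over all regions held by both LM lists and 58.5% over those held by both eG1-1 lists. No mito peak at all was found in 3563 of the eG1-1 regions (59.0%) and in 76 of the LM regions (25.5%). Promoters and distal regions both showed the difference: both mito lists held 62.7% of the LM promoter regions and 24.0% of those of eG1-1, and 32.2% and 12.7% of the distal regions. At equal length the shares were 49.8% and 12.8%. Here too the runs were unlike. The replicate 1 lists gave 33.7% for LM and 13.9% for eG1-1, the replicate 2 lists gave 15.6% and 16.0%, and without LM replicate 1 the shares were 12.9% for LM and 30.1% for eG1-1.

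At the level of genes, 467 of 20665 protein-coding genes (2.26%) had a promoter peak in both eG1-1 lists and neither LM list, and 98 (0.474%) the reverse, while 6293 had one in all 4 lists. At equal length the balance turned, with 152 genes for eG1-1 (0.736%) and 623 for LM (3.01%). Of the 467 genes 131 were also among the 152 (28.1% of the first and 86.2% of the other list), and of the 98 genes 84 were among the 623 (85.7% and 13.5%). These 131 and 84 genes are, by definition, the genes that meet the stricter count. Leaving out a list can only raise the gene counts too. The count of 98 rose to 729 without LM replicate 2, 751 without eG1-1 replicate 2, 187 without eG1-1 replicate 1 and 180 without LM replicate 1. The count of 467 became 1882 without LM replicate 1, 766 on leaving out LM replicate 2, 1439 for eG1-1 replicate 1 and 668 for eG1-1 replicate 2. Both mito lists held a peak at 65 of the 98 LM genes (66.3%) and at 140 of the 467 eG1-1 genes (30.0%).

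The highest lower scores in the LM direction belonged to Mcm2, Lmtk2, Xpot and Dut, each with peaks in both mito lists as well. Mcm2, part of the MCM helicase that opens DNA at origins, scored 113 and 87 in the LM lists and 78 and 96 in the mito lists, with no eG1-1 peak. Dut, which removes dUTP from the nucleotide pool, scored 123 and 72 in LM and 112 and 123 in mito. Both genes thus had a peak in 4 lists and lacked one in both eG1-1 lists. Xpot, the export receptor of tRNA, scored 91 and 73 in LM and 93 and 99 in mito. Ranbp1, a regulator of the Ran GTPase of nuclear transport, and its divergent neighbour Trmt2a, a tRNA methyltransferase, shared 1 peak with scores of 75 and 70 in LM and 47 and 49 in mito. Lmtk2, a kinase of membrane traffic, scored 99 and 74 in LM and 141 and 181 in mito. Cpsf2 and Myl6 also had a peak in both mito lists. Cpsf2, a subunit of the mRNA cleavage and polyadenylation factor, and its neighbour Ndufb1, a subunit of respiratory complex I, shared 1 peak with scores of 100 and 52 in LM and 86 and 61 in mito. Myl6, a myosin light chain, scored 65 and 97 in LM and 113 and 133 in mito. The last named by score were Irx2, a homeobox gene (60 and 56 in LM, 65 and 89 in mito), and Zfp706, which shared its peak with LOC115488529 (60 and 89 in LM, 54 in mito replicate 1 and no peak in mito replicate 2). Zfp706 and LOC115488529 had no entry in the table of start sites, so that both annotated ends were used for them. Every one of these 12 genes also had its peaks among the strongest of both LM lists. This follows from how the genes were chosen. The cut left LM replicate 2 whole, and the lowest score kept in LM replicate 1 was 28.

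Beside Mcm2 and Ranbp1, 3 members of the gene lists were in the LM direction. By list this was 1 of 37 replication licensing genes, 2 of 42 nuclear envelope genes and 2 of 33 ribosome synthesis genes. The other lists had none, and over all genes the share was 0.474%. Polr1c, a subunit shared by RNA polymerases I and III, scored 45 and 60 in LM and 36 and 50 in mito. Gar1, a protein of the snoRNP particles that modify ribosomal RNA, scored 70 and 31 in LM and 79 and 66 in mito. Nup188, a scaffold nucleoporin, scored 37 and 29 in LM, had no peak in mito replicate 1 and scored 50 in mito replicate 2. None of the 3 had an eG1-1 peak.

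The highest lower scores in the eG1-1 direction belonged to Mef2b, Oscar and Zc3hc1. Mef2b, a transcription factor of the MEF2 family, scored 203 and 246 in the eG1-1 lists and 113 and 127 in the mito lists, with no LM peak. Zc3hc1, which encodes the F-box protein NIPA, scored 139 and 161 in eG1-1, with 79 and 51 in mito. Dctn2, a subunit of dynactin, and Kif5a, a kinesin heavy chain, shared 1 peak with scores of 167 and 130 in eG1-1, 91 in mito replicate 1 and no peak in mito replicate 2. Each of these genes had a peak in mito replicate 1. Gstm2, a glutathione transferase, scored 128 and 132 and Zfp534, a zinc finger gene, 107 and 231. Btbd16 scored 102 and 104. Those 3 genes had no peak in the mito lists either. Per1, a component of the circadian clock, scored 116 and 102 in eG1-1, with 40 in mito replicate 2 alone. Trim14, of the TRIM family, scored 105 and 173 in eG1-1, with 37 in mito replicate 2 alone. Dld, the E3 subunit of mitochondrial dehydrogenase complexes, scored 101 and 191 in eG1-1, with 64 and 51 in mito, and Atp5d, a subunit of ATP synthase, 102 and 100 in eG1-1, with 39 and 30 in mito. For Oscar, a receptor of osteoclasts, the peak (152 and 162 in eG1-1, 73 and 92 in mito) was centred at −1334 and −1368 bp from the start and overlapped an annotated end of the neighbouring gene Ndufa3. Only the edge of this peak reached into the 1 kb window of Oscar.

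Of 32 naive pluripotency genes 2 were in this direction and none in the other in the full lists, against 2.26% and 0.474% of all genes. At equal length none was in this direction and 2 were in the other, against 0.736% and 3.01% of all genes. Tdgf1, a co-receptor of Nodal, scored 71 and 57 in eG1-1, with 28 and 82 in mito, and its 2 eG1-1 peaks were centred at −217 and −1534 bp from a start, so that they were not at the same place. Esrrb, a nuclear receptor of the naive state, scored 30 and 61 in eG1-1, 25 in mito replicate 1 and had no peak in mito replicate 2. The 2 eG1-1 peaks of Esrrb were centred at 194 and −145 bp from a start and did not overlap either. Eomes, a mesendoderm factor, scored 25 and 49, the nucleoporin gene Nup43 scored 20 and 80, Polr2k, for a small subunit shared by the RNA polymerases, 39 and 42, and Rpl39l, a ribosomal protein paralog, 26 and 85. Eomes, Nup43, Polr2k and Rpl39l were each the only member of their list in this direction, out of 28, 42, 52 and 79 genes. None of these 6 was among the strongest peaks of both eG1-1 lists. The lowest scores kept there were 38 and 66, against 28 and 13 in LM, so this demand was weaker for LM genes. Kif5a, Trim14, Polr2k and Nup43 had no start site in the table, so that both annotated ends were used.

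**Figure D2:**
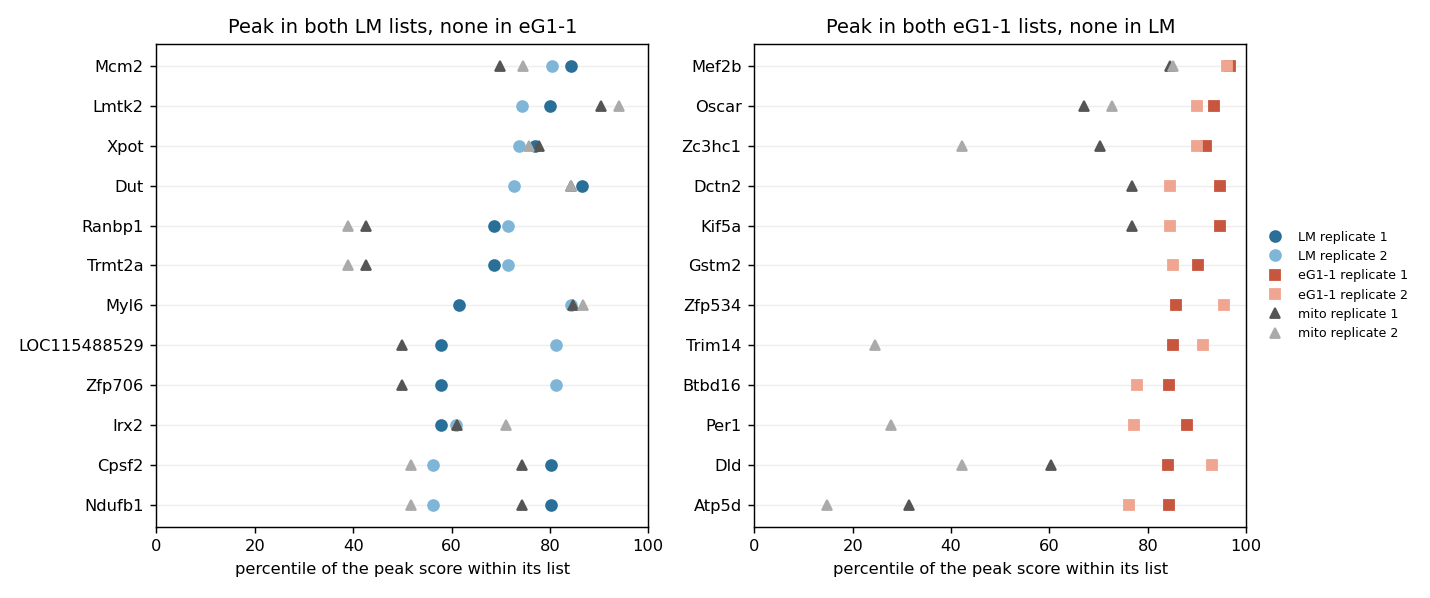
Percentile of the peak score within its own list (x axis) for the 12 named genes with the highest lower score among genes with a promoter peak in both LM lists and neither eG1-1 list (left) and the reverse (right); each mark is 1 list, and a list without a mark had no peak. On the left all 12 genes have a mito triangle, with Mcm2 at 69.8 and 74.6, and on the right Gstm2, Zfp534 and Btbd16 have none; lists differ in length, so percentiles of different lists are not on 1 scale.

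Promoters of the LM genes were rich in CpG. Of the genes with a start site in the RefSeq table, 72 of the 98 LM genes had a median of 31 CpG in the 300 bases around the start (250 before and 50 after), 359 of the 467 eG1-1 genes had 15, and all 16457 genes had 15. Genes with a peak in all 4 lists had a median of 22 and genes with none 3. At equal length the medians were 26 for LM and 14 for eG1-1. Read by list, genes in the top quartile of CpG (27 to 67) had a promoter peak in 74.6% of cases in LM replicate 1, 52.4% in LM replicate 2 and 49.4% in each of the eG1-1 lists, at equal length. The mito lists gave 73.6% and 70.1%. Again LM replicate 1 was near the mito lists and LM replicate 2 near the eG1-1 lists. In the full lists the LM shares were 78.7% and 52.4% and the eG1-1 shares 61.7% and 76.0%, and the groups overlapped. In the lowest quartile (0 to 4 CpG) all 6 shares at equal length lay between 3.17% and 3.44%.

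**Figure D3:**
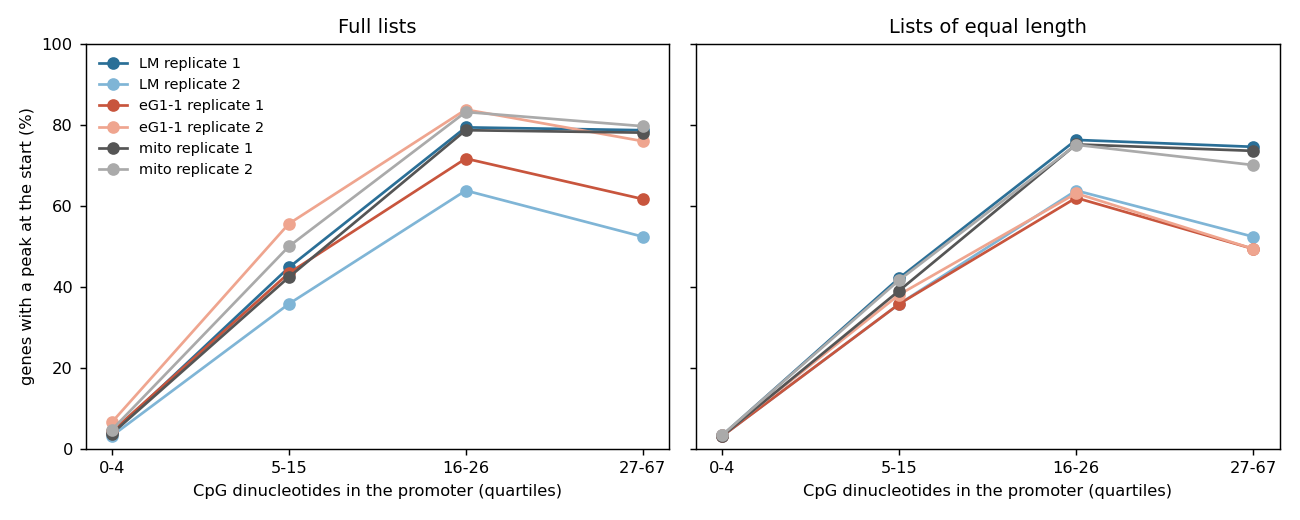
Share of genes with a promoter peak (y axis, %) by quartile of the number of CpG in the promoter (x axis), for each of the 6 lists as deposited (left) and at equal length (right). At equal length LM replicate 1 (74.6% in the top quartile) runs with the mito lists (73.6% and 70.1%), and LM replicate 2 (52.4%) runs with the eG1-1 lists (49.4% each).

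Motif letters were counted in the same 300 bases, each motif by itself, so that matches may overlap. The GC box was found in 70.8% of LM genes (51 of 72) and 55.2% of eG1-1 genes (198 of 359), against 50.3% of all genes and 73.1% of genes with a peak in all 4 lists. The CCAAT box was in 34.7% and 37.9%, against 42.3% of all genes and 51.7% of those in all 4 lists. For the other motifs, parentheses give all genes and then genes in all 4 lists. The ETS letters were in 18.1% and 15.6% (13.3% and 22.6%) and the CREB letters in 1.39% and 4.18% (2.63% and 4.28%). The MYC and USF letters were in 11.1% and 9.47% (9.01% and 11.7%) and the TATA letters in 12.5% and 12.3% (15.0% and 7.50%). The NRF1 letters were in 1.39% and 0.836% (2.81% and 5.09%) and the cell cycle homology region in 9.72% and 15.6% (17.8% and 13.2%). The octamer part was in 4.17% and 5.01% (4.89% and 4.61%) and the YY1 letters in 6.94% and 1.95% (2.14% and 3.95%). With 72 LM genes the intervals are wide, and that of the YY1 letters ran from 3.00 to 15.2%. At equal length the YY1 letters were in 4.22% of 474 LM genes.

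Promoter peaks were also counted in 12 lists of genes. Of 79 cytosolic ribosomal protein genes 61 had a promoter peak in LM replicate 1, 28 in LM replicate 2, 40 and 53 in eG1-1, with 62 and 69 in mito. All protein-coding genes gave 50.0% and 37.4% in LM and 43.7% and 54.3% in eG1-1. In 33 genes of ribosome synthesis and RNA polymerase I the counts were 30 and 27 in LM and 25 and 30 in eG1-1. At equal length they became 23 and 22 in eG1-1, below both LM lists. Naive pluripotency genes had 19 and 13 of 32 in LM, 13 and 20 in eG1-1, with 26 and 24 in mito, and at equal length 16 and 13 in LM and 11 and 9 in eG1-1. At equal length the LM and eG1-1 counts of both of these lists did not overlap, but neither did those over all 20665 genes, with 9797 and 7721 in LM and 7426 and 7665 in eG1-1. Genes of mitosis and cytokinesis had a peak in 33, 31, 30 and 33 of 34 cases, in the order LM replicates 1 and 2 and eG1-1 replicates 1 and 2. The replication licensing list gave 33, 29, 30 and 32 of 37, the list of the nuclear envelope and pore 37, 25, 28 and 32 of 42, and that of RNA polymerase II and Mediator 49, 37, 38 and 47 of 52. Cohesin, condensin and CTCF gave 15, 13, 12 and 15 of 18, immediate early genes 22, 14, 15 and 23 of 26, and formative and germ layer genes 13, 4, 6 and 9 of 28. Genes of other cell types gave 7, 6, 8 and 10 of 26, and of 12 genes of the two-cell-like state 1 had a peak, in eG1-1 replicate 2.

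**Figure D4:**
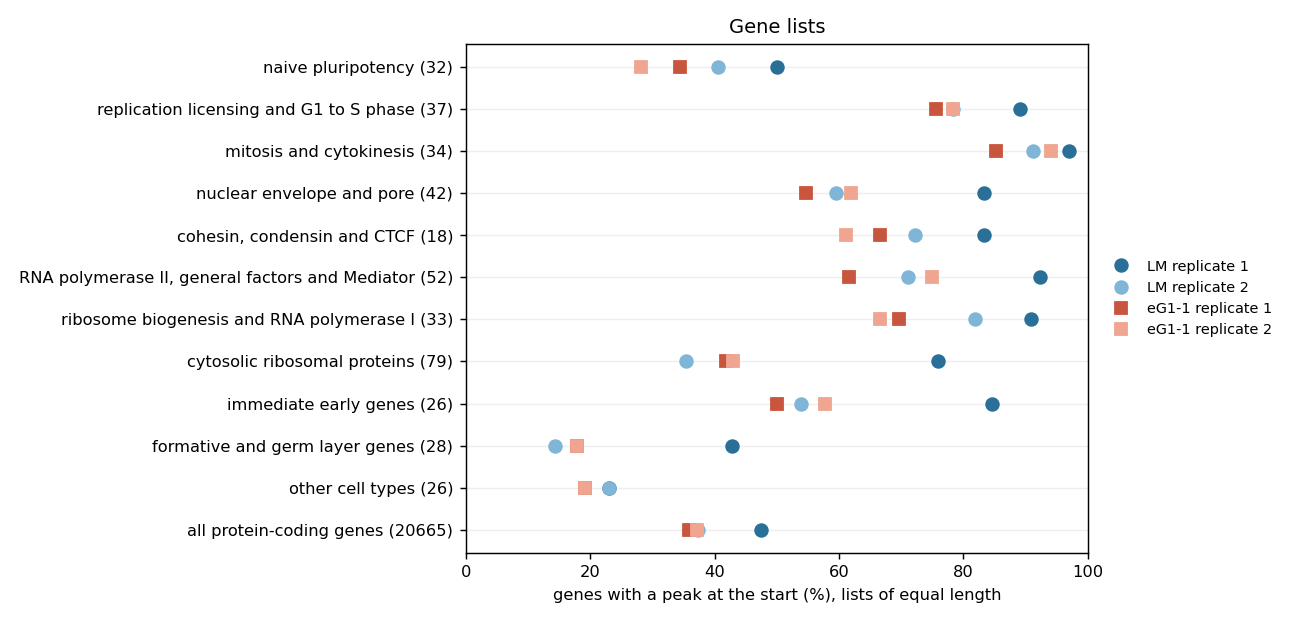
Share of the genes of each list (number of genes in parentheses) with a promoter peak (x axis, %) in LM (circles) and eG1-1 (squares) at equal list length. LM replicate 1 has the highest share in the lists drawn, tied with LM replicate 2 for other cell types; for ribosomal proteins it holds 60 of 79 genes, against 28 in LM replicate 2 and 33 and 34 in eG1-1.

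Single pluripotency genes differed between lists of the same group. Pou5f1, which encodes OCT4, scored 49 in LM replicate 1 and 43 in eG1-1 replicate 2 and had no peak in the other 2 lists, while both mito lists held one (48 and 75). Nanog had a promoter peak only in eG1-1 replicate 2 (46), and Sox2 only in LM replicate 2 (24) and mito replicate 1 (50). Klf2 had scores of 136 and 124 in LM and of 174 in eG1-1 replicate 2, with none in eG1-1 replicate 1. Zfp42, a marker of the naive state, scored 168 and 178 in LM, 191 and 340 in eG1-1, with 127 and 149 in mito. Of these genes only Zfp42 was held by all 6 lists. In the whole list of 32 naive pluripotency genes, 7 had a promoter peak in all 4 LM and eG1-1 lists. Beside Zfp42 they were Dppa2, Fbxo15, Klf5, Nr5a2, Tbx3 and Trim28, each with a peak in both mito lists too.

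The distal regions of eG1-1 and not LM numbered 5405, and those of LM and not eG1-1 180. They lay at similar distances from the nearest start, with medians of 26341 and 25420 bp, and inside a protein-coding gene in 50.7% and 47.8% of cases. The highest scores in eG1-1 were at chr6:47748306-47748569, 10112 bp from Gm40363, with 287 and 317 in eG1-1, with 201 and 413 in mito. Next came chr2:177806284-177806517, with 235 and 436 in eG1-1, 160 in mito replicate 2 and no peak in mito replicate 1. A region inside Mast1, a kinase gene, at chr8:84944339-84944924, scored 193 and 185, with 66 in mito replicate 1 alone. One inside Gm13212 at chr4:145594251-145594664 scored 184 and 307, with 65 in mito replicate 2 alone, and one 80572 bp from Ipo5, an importin gene, at chr14:120830463-120830780, scored 173 and 295 with no mito peak. The highest scores in LM were at chr13:9011763-9012165, 15952 bp from Gtpbp4, with 315 and 607 in LM and 772 and 409 in mito. Then followed chr3:62159103-62159354 with 135 and 484 in LM and 330 and 610 in mito, and chr3:96340743-96341254 with 170 and 77 in LM and 274 and 107 in mito. A region inside Tob2 at chr15:81856048-81856661 had 76 and 70 in LM, with 62 in mito replicate 2 alone, and one inside St7 at chr6:17840635-17841153 scored 67 and 73 in LM and 74 and 23 in mito. Of these named regions, 4 of the 5 of LM and 1 of the 5 of eG1-1 had a peak in both mito lists. Distal regions of eG1-1 and not LM were also grouped among themselves, with a gap of up to 12.5 kb allowed and all other regions left aside. Of these, 4848 had no other such region in reach, 257 groups held 2 and 13 held 3. The 1 group of 4 lay in Fmnl2, which encodes an actin-nucleating formin, at chr2:52913516-52928547. The same grouping was not made for other distal regions.

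Near pluripotency genes, eG1-1 regions without an LM peak were present but not common. Within 50 kb of a start of a naive pluripotency gene, 19 of the 78 distal regions held by both eG1-1 lists had no LM peak (24.4%, 16.2 to 34.9), against 34.3% of all 15740 such regions. Utf1 had one 28133 bp away at chr7:139915384-139916064, with scores of 101 and 133 in eG1-1, with 50 and 53 in mito. Fgf4, a growth factor whose gene has a known enhancer downstream, had one 3140 bp from its start at chr7:144864267-144864786, with 87 and 152 in eG1-1, with 36 and 39 in mito. Dppa3 had one 1729 bp away at chr6:122624535-122624856, with 73 and 84 in eG1-1, with 54 and 48 in mito. These 3 regions had peaks in both mito lists, as did 6 of the 19 in all, while 9 of the 19 had no mito peak. Sall4 and Tbx3 had the only 2 LM regions of this list, with scores of 27 and 19 for Sall4 and 21 and 36 for Tbx3.

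Other lists gave shares on both sides of that of all distal regions. Mitosis genes had 17 of 39 (43.6%, 29.3 to 59.0), with Birc5, which encodes survivin, at 76 and 96 in eG1-1 for a region 32696 bp away, and Cdk1, the mitotic kinase, with 2 regions at 67 and 92 and at 57 and 81. Cohesin, condensin and CTCF had 13 of 24 (54.2%, 35.1 to 72.1), among them a region near Stag1 with 123 and 50 and no mito peak. Ribosome synthesis had 24 of 52 (46.2%, 33.3 to 59.5), replication licensing 20 of 71 (28.2%) and formative genes 11 of 59 (18.6%, 10.7 to 30.4). The licensing list included Ccne1, which encodes cyclin E1, with a region 4645 bp away at 80 and 182 in eG1-1. Of these lists, only cohesin and its partners had an interval wholly above the share of all distal regions, and only formative genes one wholly below it, on 24 and 59 regions. Other kinds of genes also differed: distal regions within 1 kb of an annotated end of a miRNA gene lacked an LM peak in 25 of 52 cases (48.1%), those of lncRNA genes in 312 of 1095 (28.5%) and those of tRNA genes in 9 of 87 (10.3%).

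In the 11261 regions held by all 4 lists the score rank within a list could be compared without regard to list length. Promoter regions (5567) had a median percentile rank of 67.4 in LM replicate 1, 60.7 in LM replicate 2, 58.2 in eG1-1 replicate 1 and 59.1 in eG1-1 replicate 2. Distal regions (5694) had 34.9, 40.3, 43.6 and 42.9. Both LM lists thus ranked promoters higher than both eG1-1 lists did, and LM replicate 2 lay between LM replicate 1 and the eG1-1 lists. A randomly taken promoter region outscored a randomly taken distal one with a probability of 0.738, 0.649, 0.612 and 0.613, so that LM averaged 0.694 ± 0.0632 and eG1-1 0.613 ± 0.000688 (SD, n = 2 per group). The difference was −0.0809, with an exact two-sided permutation p of 0.333, the smallest possible. It was −0.0321 without LM replicate 1 and −0.127 without LM replicate 2.

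**Figure D5:**
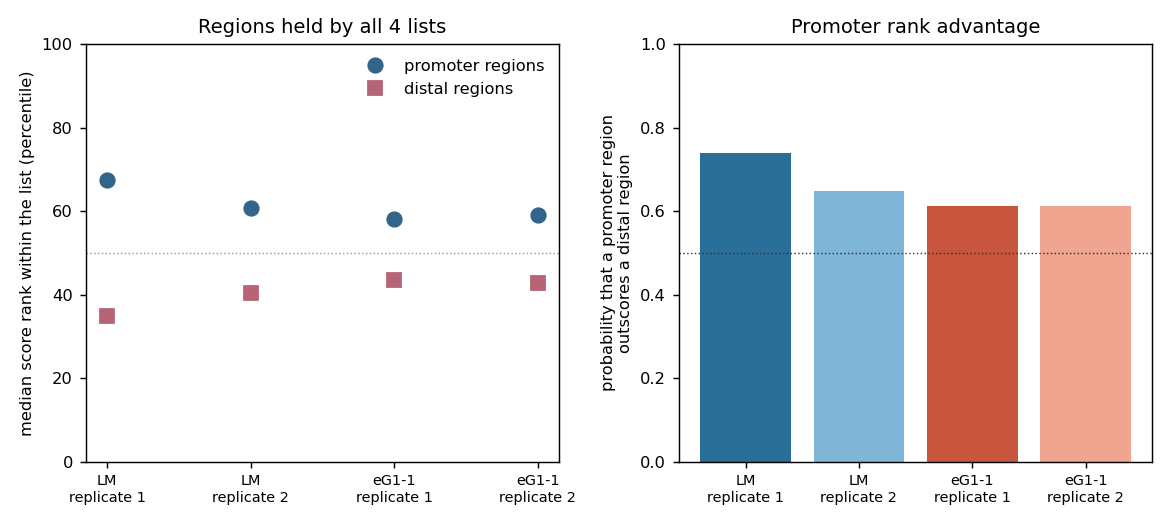
Left, median percentile rank of the score within each list (y axis) for promoter regions (circles) and distal regions (squares) among regions held by all 4 lists. Right, probability that a promoter region outscores a distal region in each list, with 0.5 (dotted) for no difference; it was 0.738 and 0.649 in LM and 0.612 and 0.613 in eG1-1.

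Regions that ranked higher in both eG1-1 lists than in both LM lists numbered 2222 (19.7%), and the reverse 2185 (19.4%). If the 4 lists stood in random order at each region, about 1 region in 6 would fall in each direction. Regions higher in eG1-1 were at a promoter in 37.6% of cases and those higher in LM in 62.0%, against 49.4% of all shared regions. With a gap of more than 20 percentile points the counts were 401 and 430, with promoter shares of 25.2% and 62.1%. The widest gaps in the eG1-1 direction were distal. A region in Cyria at chr12:12278571-12279148 scored 21 and 19 in LM and 109 and 164 in eG1-1, with no mito peak. One in Cenpn and Cmc2 scored 58 and 48 in LM and 280 and 309 in eG1-1, and 85 and 151 in mito. Regions in Myom1, Galnt7 and Nrxn3 followed. The 5 widest gaps in the LM direction were all promoters. That of Wasf2, an activator of actin branching by the Arp2/3 complex, scored 118 and 92 in LM, 19 and 35 in eG1-1, with 105 and 65 in mito. Pim1, a kinase gene, scored 115 and 117 in LM, 34 and 56 in eG1-1, with 109 and 64 in mito. The shared start of Gnpat and 2810004N23Rik scored 154 and 128 in LM, 49 and 66 in eG1-1, with 77 and 156 in mito, and the promoters of Rprd1b with Tti1 and of Ufsp2 with 1700029J07Rik followed. Scores of different lists are not on 1 scale, but in Wasf2 both LM scores ranked near the 70th percentile of their list (71.9 and 70.1) and both eG1-1 scores below the 2nd (0.564 and 1.44).

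The mito lists took no part in these ranks. Of the regions ranked higher in LM 2032 also had a peak in both mito lists, where their median ranks were 58.6 and 54.6, against 62.2 and 58.6 in the LM lists and 29.7 and 29.6 in the eG1-1 lists. Of the regions ranked higher in eG1-1 1858 had peaks in both mito lists, with median ranks of 42.0 and 43.3 there, 33.5 and 38.5 in LM and 69.0 and 66.5 in eG1-1. The LM and eG1-1 medians follow from how the regions were chosen. In both directions the mito medians were nearer to those of LM than to those of eG1-1.

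By gene, 1187 of the 6293 genes held by all 4 lists (18.9%) ranked higher in both eG1-1 lists and 1166 (18.5%) in both LM lists. Lists in random order would again give about 1 in 6 each way. In ribosome synthesis 7 genes were on the LM side and 1 on the eG1-1 side, out of 22 held by all 4 lists. Among the 7, Polr1d, a polymerase subunit, scored 211 and 152 in LM and 74 and 183 in eG1-1, and Nolc1, a nucleolar chaperone, 160 and 100 in LM and 70 and 118 in eG1-1. The exception was Fbl, the ribosomal RNA methyltransferase fibrillarin, with 78 and 53 in LM and 119 and 139 in eG1-1. Replication licensing had 6 genes on the LM side and 3 on the eG1-1 side, out of 26 held by all 4 lists. Those of the LM side included Mcm4 (197 and 76 in LM, 47 and 87 in eG1-1) and Pcna, the sliding clamp (193 and 111, 75 and 182). The eG1-1 side held E2f3, Gins2 and Orc6. Counts for the LM and then the eG1-1 side were 4 and 1 out of 12 for cohesin, condensin and CTCF. They were 5 and 3 out of 21 for the nuclear envelope, 1 and 1 out of 7 for naive pluripotency and 2 and 2 out of 10 for immediate early genes. Ribosomal proteins had 7 and 3 out of 22, mitosis genes 6 and 5 out of 29, and RNA polymerase II with Mediator 7 and 8 out of 31. On the eG1-1 side of the last list were Med6, Med7, Med24 and Med31 of the Mediator. The mitosis genes of the eG1-1 side included Ccnb1, which encodes cyclin B1 (137 and 98 in LM, 179 and 295 in eG1-1), and those of the LM side Kif11, a spindle kinesin (126 and 71, 35 and 68). Over all genes the median rank difference, eG1-1 minus LM, was −0.294 percentile points; it was −7.65 for ribosome synthesis, −12.3 for ribosomal proteins and 0.830 for RNA polymerase II and Mediator. The median was −9.35 for naive pluripotency, −7.46 for replication licensing, −2.31 for mitosis, −6.82 for the nuclear envelope and −10.4 for cohesin, condensin and CTCF. It was −3.67 for immediate early genes, −10.6 for genes of other cell types and 4.14 for formative and germ layer genes, on only 10, 6 and 3 genes held by all 4 lists. A difference below that of all genes was thus common to most lists, those of other cell types included.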

How the data were processed

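Each of 6 samples had 1 deposited peak list (chromosome, start, end, name and score). Tools named in the submitters' processing notes, with no role given, are MACS2 2.2.4, STAR 2.7.0e, bedtools, Picard, deepTools 3.5.1 and SAMtools 1.10, and the builds are mm10 and GRCm38. Calls were made per sample on paired-end fragments, as the names of the deposited peaks show. The deposited score has no stated scale. Whether read ends were shifted for Tn5 is not given in the sources used here.

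Lists were merged and counted with Python 3.11.15, numpy 2.4.6, pandas 2.3.3 and SciPy 1.17.1, and figures drawn with matplotlib 3.10.9. The code was tested on simulated lists. Start sites of 16457 of the 20665 protein-coding genes on chromosomes 1 to 19 came from RefSeq promoters (GRCm38.p6); both annotated ends served for the other 4208, whose peaks may lie at 3′ ends. A gene was called by overlap with 1 kb either side. Values per list were tested by an exact permutation over 6 assignments. Replicate numbers mark sequencing runs in the peak names, which pairs the lists; deviations of same-numbered lists correlated at 0.0194 over the regions. Named genes were the 12 with the highest lower score per direction, the 8 highest under the stricter count, up to 5 members per gene list and direction, 5 distal and 5 shared regions per direction (1 gene that the rule picks is not reported here, and the next took its place); the genes of single lists named otherwise, and the distal regions near list genes, were chosen after their values were seen. Of 434 symbols in the 12 lists 419 matched. Members and lists were chosen with earlier results of these data known. Alternatives were equal length, a score minimum of 50, a 500 bp window, annotated ends, an overlap of 50% of the shorter peak, leaving out each list and the replicate block; the stricter count, start-site genes only and single runs were added after seeing the data.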

Additional observations from a re-analysis of the deposited data

Results flagged for a closer look

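Chromosome X was outside the comparison. Of 1185 regions there, 134 (11.3%) had a peak in both eG1-1 lists and neither LM list, against 10.1% on chromosomes 1 to 19, and 6 (0.506%) the reverse, against 0.500%. These regions are given because they lie in data that no other count here uses.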

How the results depend on the processing

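Each count and share was recomputed under the alternatives, and of 138 values 66 kept their direction and, for counts and shares, stayed within 1.5 times or the Wilson interval, 69 moved further and 3 turned. The cause of these moves was not tested, beyond the smaller number of lists or peaks that an alternative uses. The 66 include the values with the replicate number as a block, which cannot change a difference of means. With the strongest peaks of each list, regions of eG1-1 and not LM numbered 1625 and of LM and not eG1-1 1250, genes 152 and 623, the promoter share of the eG1-1 regions was 12.5%, their mito share 12.8%, and the difference in median width turned from −22.5 to 59.5 bp. At a score of at least 50 there were 3634 and 131 regions, with promoter shares of 15.2% and 61.8% and mito shares of 16.1% and 58.0%. For the eG1-1 regions, a 500 bp window gave a promoter share of 8.30%, annotated ends 11.5%, and an overlap of 50% of the shorter peak 11.5% with a mito share of 15.8%. The stricter count gave 1496 regions and 131 genes of eG1-1, with shares of 12.3% and 22.3%. Genes with a start site alone gave promoter shares of 7.74% and 30.2%.

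Within the run of the replicate 1 lists there were 15096 and 7454 regions and 991 and 2312 genes of eG1-1 and of LM, with a mito share of 33.7% for LM. At equal length there were 7858 LM regions, 3039 LM genes and an LM mito share of 34.7%. Within the run of the replicate 2 lists there were 29794 and 2795 regions, 3784 and 293 genes, promoter shares of 16.0% and 16.3% and mito shares of 16.0% and 15.6%; at equal length there were 6960 LM regions, 1413 and 1469 genes, promoter shares of 20.9% and 22.7% and mito shares of 22.2% and 23.1%.

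Leaving out each list gave 8745 to 23742 regions and 668 to 1882 genes of eG1-1, and 511 to 3536 regions and 180 to 751 genes of LM. Promoter shares ran from 9.57 to 20.2% and from 16.5 to 41.7%, mito shares from 7.23 to 30.1% and from 12.9 to 60.1%, the difference in median width from −85.0 to 40.0 bp, that in promoter share of peaks from −16.5 to −9.52 points, that in number of peaks from 9610 to 25578, and that in promoter rank advantage from −0.127 to −0.0321. With the replicate number as a block the exact permutation p was 0.500 for the number of peaks (difference 17594), the promoter share (−13.0) and the rank advantage (−0.0809), the smallest possible. A block cannot change a difference of means, and with so few lists it could not change a call either. The read depth is unknown, so a peak absent from a list cannot be told from one below detection.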
